A study of Mus musculus with 11 samples.

Results

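The genes described here are the membrane-bound mucins of mouse colorectal organoids, chosen by name from a list of 6: Muc1, Muc3, Muc4, Muc12, Muc13 and Muc20. Of these, 5 had a row under that name among the 47131 genes of the count table. No row used here carries the name Muc12, which was not analysed here. All 5 had enough counts to be among the 14840 genes tested. Colorectal organoids are epithelial cultures grown in Matrigel, here started from the colons of C57BL/6J mice, all female and 6 to 8 weeks old. There were 11 libraries, 5 of controls and 6 of organoids exposed for 48 h to NAP at 10 pM. The labels do not say what NAP stands for, call the controls untreated in one place and vehicle-treated with phosphate-buffered saline in another, and give 1 batch. The libraries are labelled biological replicates with no animal or culture named for each, so the p-values rest on a spread that could be partly technical.

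Mucins are proteins with long stretches of serine, threonine and proline that carry dense O-linked sugars. Secreted mucins such as Muc2, the product of goblet cells, build the mucus gel, whereas membrane-bound mucins span the plasma membrane and project from the apical surface as part of the glycocalyx. Most of the latter are cleaved during synthesis into 2 chains that stay bound to each other, and their cytoplasmic tails take part in signalling.

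Total counts per library ranged from 16546263 to 21947414, and a count of 0 allows up to 0.130 to 0.215 CPM (counts per TMM-scaled library size; the limit is 3 counts over that size and covers counting error only). The controls differed widely in their colonocyte and stem cell markers. A score of 18 colonocyte markers minus 14 stem cell markers (mean deviation of log2 CPM, with no mucin of the list among them) was -3.55 and -2.76 in controls 4 and 1, -0.92 in control 3, and 2.27 in control 2, with control 5 next to it. The NAP libraries lay between, at -0.51 to 1.35. Controls 2 and 5 resembled each other most (Pearson r of log2 CPM 0.983 across genes, which are not independent) but differed beyond counting noise, with a chi-square of 8.11 per degree of freedom, and were kept as separate libraries. For the 5 members, log2 fold changes are given below with and without controls 1 and 4, and with and without controls 2 and 5. Those of all other genes are given over all libraries only, although some of these genes also differed between these controls. Markers of epithelium were abundant, with 6 genes summing to 8692 to 16219 CPM in controls and 9632 to 13283 CPM after NAP. Markers of immune cells (7 genes, 6.22 to 14.6 and 9.86 to 24.4 CPM), stroma (8 genes, 2.52 to 32.3 and 7.82 to 52.8 CPM) and endothelium (4 genes, 3.13 to 4.81 and 2.87 to 4.95 CPM) were low, although none was at 0 in every library. The rank correlation of expression deviation with transcript GC content also differed between libraries, at 0.015 to 0.36 in controls and -0.539 to 0.109 after NAP. With the GC trend removed the log2 fold changes of the members were -1.26 for Muc1 and 0.51 to 0.83 for the others, and its part in them was not tested further.

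Per kilobase of gene length, Muc13 was the most abundant of the 5 genes in every library, followed by Muc3. In CPM, which is not divided by length, Muc3 exceeded Muc13 in controls 1 and 4 and in NAP 1 and NAP 3. Levels of different genes are compared on the authors' FPKM scale, which divides counts by gene length. Muc13 stood at 438 ± 240.4 FPKM in controls (mean ± SD, n = 5 controls and 6 NAP libraries throughout) and 651 ± 227 FPKM after NAP. Muc3 stood at 59.7 ± 4.78 and 89.5 ± 26.6 FPKM, with no library's value inside the range of Muc13. Muc1, at 8.50 ± 7.06 and 3.31 ± 2.77 FPKM, and Muc4, at 3.19 ± 2.03 and 4.64 ± 2.22 FPKM, overlapped in both groups and cannot be ordered. Muc20 was lowest, at 0.183 ± 0.142 and 0.316 ± 0.321 FPKM. Muc13 took 70.9 to 91.7% of the summed FPKM of the 5 genes in controls and 73.3 to 91.8% after NAP. Per kilobase it exceeded Muc3 by 2.96 to 12.3 times, with the lowest ratios in NAP 1, control 1 and control 4, and the highest in NAP 5 and controls 2 and 5.

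**Figure D1:**
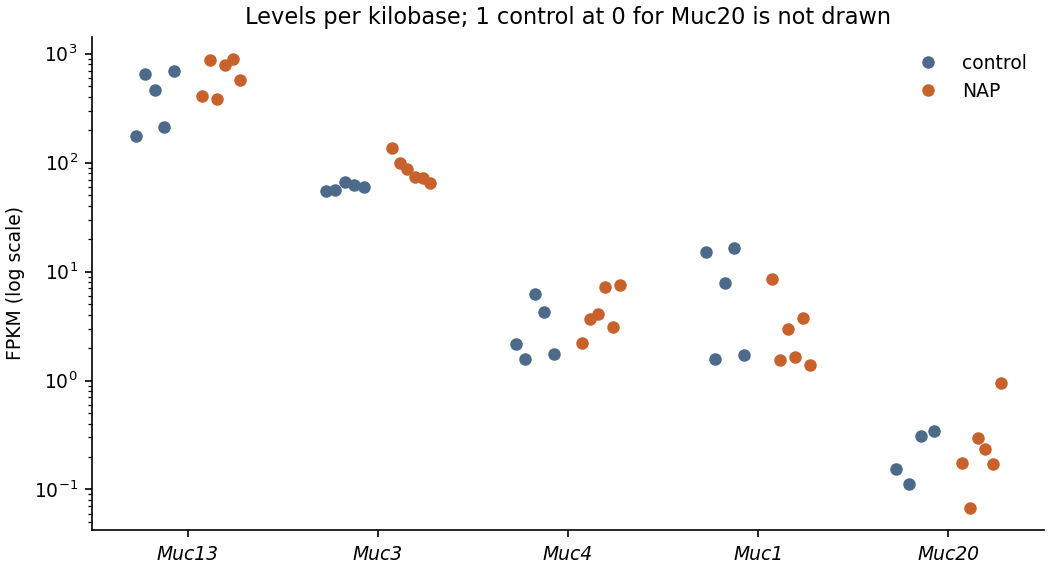
Levels of the 5 membrane-bound mucin genes in FPKM (log scale), 1 point per library, controls in blue and NAP in orange. Muc13 lies above Muc3 in all 11 libraries, Muc1 and Muc4 overlap, and Muc20 stays below 1 FPKM.

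No member passed the edgeR test of NAP against control. Of 5 tested members 0 had an adjusted p under 0.05 by the quasi-likelihood test of edgeR, against 2.12% of all tested genes (1.05% higher and 1.07% lower after NAP). With limma on voom values 0 members and 2.04% of genes passed, and with DESeq2 1 member (Muc3, adjusted p = 0.0360) and 13.0% of genes. The edgeR count over all genes, 315, fell to 0 when control 1, 2 or 5 or NAP 2, 4 or 5 was left out. At an unadjusted p under 0.05 stood 1 member, Muc3, against 23.6% of all tested genes. The log2 fold change was positive for 4 members and negative for Muc1, with a median of 0.57, whereas the median over all tested genes was -0.07 and 44.7% of those were positive.

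**Figure D2:**
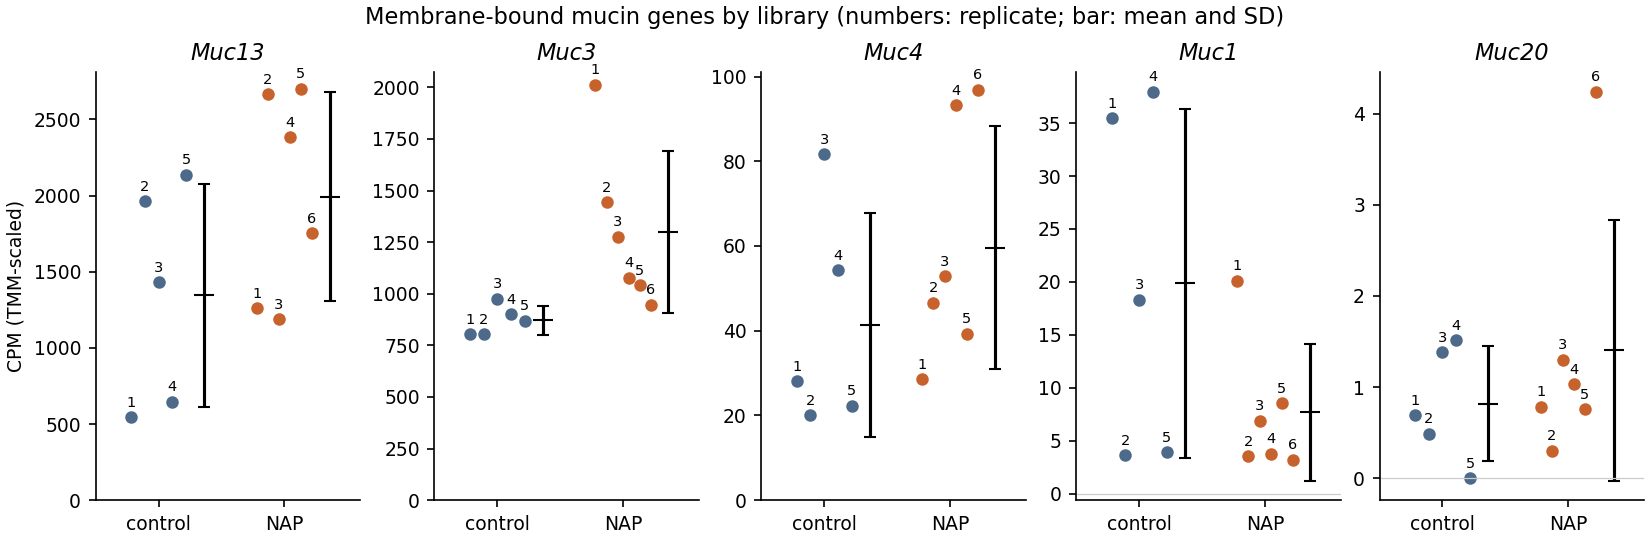
CPM of each membrane-bound mucin gene in the 5 control and 6 NAP libraries, numbered by replicate, with the mean and SD of each group as a bar. Control values of Muc3 lie close together at 804 to 975 CPM, while those of Muc13 and Muc1 spread 3.91-fold and 10.5-fold.

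Muc3 is the intestinal mucin whose protein the deposited table likens to Mucin-17, a mucin of the brush border. The gene (identifier 666339) lies on the minus strand of chromosome 5 from 137163772 to 137202809 of GRCm39. Controls 1 to 5 held 805, 804, 975, 900 and 868 CPM. After NAP the lowest value was 948 CPM (NAP 6), the median 1178 CPM and the highest 2012 CPM (NAP 1). Of the 6 NAP libraries 5 lay above every control, and NAP 6 lay above all controls except control 3, so the groups overlapped by 1 library on each side. Means were 870.5 ± 71.8 CPM (control) and 1300.2 ± 392 CPM (NAP), a 1.49-fold difference (log2 fold change 0.58, SE 0.22, adjusted p = 0.134). This was the most even member among controls, with a coefficient of variation of 8.25%, and NAP libraries varied more, at 30.1%. Leaving out controls 1 and 4 or controls 2 and 5 gave 0.59 and 0.57, and leaving out NAP 1 gave 0.41. In the DESeq2 fit named above, the log2 fold change of Muc3 was 0.60. With the colonocyte minus stem score as a covariate edgeR called it (0.61, adjusted p = 0.0383), in a fit that called 22.0%. Muc3 overlaps a long noncoding gene of the other strand, Gm40348, by 3618 bases, but that gene held at most 0.503 CPM.

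Muc13 is a small membrane mucin with epidermal growth factor-like domains, abundant on the apical surface of the large intestine. The gene (identifier 17063) lies on the plus strand of chromosome 16 from 33614407 to 33640299. Controls 1 to 5 held 546.5, 1962, 1431, 646 and 2136 CPM. After NAP the lowest value was 1188 CPM (NAP 3), the median 2068 CPM and the highest 2702 CPM (NAP 5). Controls 1 and 4 lay below every other library, and NAP 2, 4 and 5 above every control. Means were 1344 ± 732 CPM (control) and 1992 ± 685 CPM (NAP) (log2 fold change 0.57, SE 0.39, adjusted p = 0.395). The difference rested on which controls were counted. It was 0.14 without controls 1 and 4 (adjusted p = 0.785) and 1.21 without controls 2 and 5 (adjusted p = 0.0741). With the colonocyte minus stem score as a covariate in edgeR it was 0.34 (adjusted p = 0.196), in a fit that called 22.0% of genes.

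Muc1 is a transmembrane mucin of many glandular epithelia whose cytoplasmic tail binds beta-catenin and receptor kinases. The gene (identifier 17829) lies on the plus strand of chromosome 3 from 89136363 to 89140688. Controls 1 to 5 held 35.5, 3.63, 18.3, 38.0 and 3.94 CPM. After NAP the lowest value was 3.20 CPM (NAP 6), the median 5.33 CPM and the highest 20.1 CPM (NAP 1). Controls 1 and 4 lay above every other library, whereas controls 2 and 5 lay among the lowest, so the controls spanned the NAP range except for NAP 2 and NAP 6. Means were 19.9 ± 16.5 CPM (control) and 7.67 ± 6.45 CPM (NAP) (log2 fold change -1.38, SE 0.66, adjusted p = 0.228). Without controls 1 and 4 the log2 fold change was -0.16 (adjusted p = 0.896), in a fit that called 8.28% of genes. Without controls 2 and 5 it was -1.97 (adjusted p = 0.0499), in a fit that called 5.32% of genes, and Muc1 was then the 1 member past the threshold. With the marker score as a covariate it was -0.25 (adjusted p = 0.653).

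Among controls, Muc13 and Muc1 thus stood at opposite ends of the same libraries. Controls 4 and 1, with the lowest colonocyte minus stem scores, had the lowest Muc13 and the highest Muc1, and controls 2 and 5, with the highest scores, were high in Muc13 and low in Muc1. Among NAP libraries, NAP 1 and NAP 3 had the lowest scores (-0.51 and -0.45) and the lowest Muc13 (1259 and 1188 CPM), while NAP 2, 4 and 5 had scores of 1.15 to 1.35 and the highest Muc13. Muc1 was highest in NAP 1, and was 6.88 CPM in NAP 3, 8.54 CPM in NAP 5 and 3.20 CPM in NAP 6. The opposite order was less regular among NAP libraries, as NAP 5 had the highest Muc13 and NAP 6 held 1753 CPM of Muc13. As a description over 11 libraries, deviations of log2 CPM from the own group's mean had a Pearson r of -0.80 between Muc1 and Muc13. The points share their libraries and the marker differences given above. Muc3 had r of -0.22 with Muc13 and 0.44 with Muc1. Summed colonocyte markers ran from 4408 to 30676 CPM in controls and 13048 to 20643 CPM after NAP, and summed stem cell markers from 885 to 2811 and 1118 to 1637 CPM. Of 18 colonocyte markers 1 passed, the cell adhesion gene Ceacam1, where 2.12% of all tested genes were called. It had 863 ± 81.7 CPM (control) and 1650.2 ± 259 CPM (NAP), a log2 fold change of 0.94 (adjusted p = 0.0383). Of 14 stem cell and 12 goblet cell markers 0 passed, against the same 2.12%. Log2 fold changes were negative for 13 stem cell markers (median -0.79), 10 colonocyte markers (median -0.06) and 7 goblet cell markers (median -0.19). These values cover all libraries and were not examined without controls 1 and 4 or controls 2 and 5. The stem cell marker Lgr5 held 25.8 and 113 CPM in controls 1 and 4, and 1.12 and 0.79 CPM in controls 2 and 5. Its NAP values, 12.2 to 38.5 CPM, lay within that range. Over all tested genes 55.3% were negative, with a median of -0.07. Goblet cell markers summed to 3699 to 7698 CPM and 2268 to 5078 CPM. In whole organoids, fewer cells of a type and less RNA per cell cannot be told apart. The part of cell makeup in the levels of Muc1 and Muc13 was not tested. The score covariate cannot test it, as the score comes from the expression of the same libraries. Nor can the left-out controls, which were those at the extremes of both genes among controls.

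**Figure D3:**
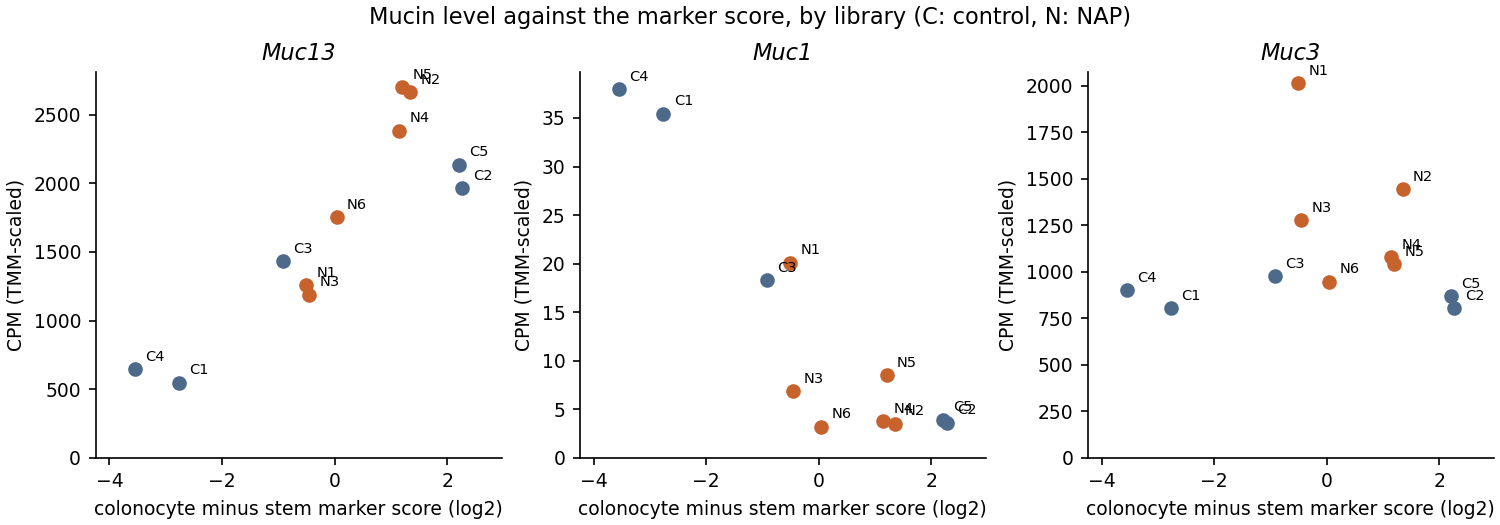
CPM of Muc13, Muc1 and Muc3 against the colonocyte minus stem marker score of each library (log2 units), controls in blue (C) and NAP in orange (N). Controls 1 and 4 at the left are lowest in Muc13 and highest in Muc1, while Muc3 lies between 804 and 975 CPM in all controls.

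The promoters of this pair are shown because the 2 genes differed in opposite directions between controls. The sequences are the 250 bases before the annotated start from RefSeq (GRCm38.p6), read on the gene's strand. Spans of Muc1 (4326 bases) and Muc13 (25893 bases) were the same there and in the deposited GRCm39 table. Those of Muc3 and Muc4 differed, so no promoter is shown for them. RefSeq entries were matched for 5 of 5 members. Capitals mark matches to any of 6 motifs searched on both strands: TATA box (TATAAA), GC box (GGGCGG), CDX (TTTATNG), HNF4 (CAAAGTCCA), DR1 (a direct repeat bound by nuclear receptors) and E-box (CAGCTG). Letters of the TATA box and CDX motifs can overlap.
Muc1, chr3:89228806-89229055, plus strand: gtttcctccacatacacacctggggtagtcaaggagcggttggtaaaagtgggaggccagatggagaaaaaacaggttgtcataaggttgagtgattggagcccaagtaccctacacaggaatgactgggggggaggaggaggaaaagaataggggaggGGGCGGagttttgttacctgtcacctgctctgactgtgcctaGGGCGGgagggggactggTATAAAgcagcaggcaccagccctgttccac
Muc13, chr16:33793787-33794036, plus strand: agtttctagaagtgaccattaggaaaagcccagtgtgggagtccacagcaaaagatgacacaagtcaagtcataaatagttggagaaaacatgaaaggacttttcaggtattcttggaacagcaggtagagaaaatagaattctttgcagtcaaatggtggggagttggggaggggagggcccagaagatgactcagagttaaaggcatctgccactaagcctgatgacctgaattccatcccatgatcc
The Muc1 window held a TATA box at -31 to -26 from the start and GC boxes at -91 to -86 and -49 to -44. Among 32536 distinct windows of this length, 12.3% held a TATA box match and 33.0% a GC box match. The Muc13 window held none of the 6 motifs. A second annotated start of Muc13 lies 452 bases downstream, and the window before it, which meets a Muc13 exon and is not shown, held an HNF4 match on the other strand at -186 to -178, as did 0.387% of windows. A match is a string of letters and does not show that a factor binds there.

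Muc4 is a large membrane mucin known as an intramembrane partner of the receptor ErbB2. The gene (identifier 140474) lies on the plus strand of chromosome 16 from 32555089 to 32602761. Controls 1 to 5 held 28.1, 20.05, 81.7, 54.3 and 22.3 CPM. After NAP the lowest value was 28.6 CPM (NAP 1), the median 49.8 CPM and the highest 96.9 CPM (NAP 6). NAP 4 and NAP 6 lay above every control, and the other NAP libraries lay within the controls' range. Means were 41.3 ± 26.4 CPM (control) and 59.6 ± 28.7 CPM (NAP) (log2 fold change 0.53, SE 0.41, adjusted p = 0.462). Control 3 alone moved this value to 0.93 when left out (adjusted p = 0.193). It was 0.15 without controls 2 and 5 and 0.55 without controls 1 and 4.

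Muc20, which is known to bind the receptor Met, was near the detection limit. The gene (identifier 224116) lies on the minus strand of chromosome 16 from 32597793 to 32617805. Controls 1 to 5 held 15, 7, 32, 33 and 0 counts, the last of which allows up to 0.215 CPM. NAP libraries held 5 (NAP 2) to 90 counts (NAP 6), with a median of 15.5. Means were 0.815 ± 0.632 CPM (control) and 1.40 ± 1.43 CPM (NAP) (log2 fold change 0.76, SE 0.76, adjusted p = 0.572). Without NAP 6 the log2 fold change was 0.02 (adjusted p = 0.989). It was 0.27 without controls 2 and 5 and 1.14 without controls 1 and 4. Muc20 and Muc4 lie tail to tail on opposite strands and share 4969 of the 20013 bases of Muc20. Whether counting used strand was not stated for these data. How far Muc4 reads from the shared bases were added to the few counts of Muc20, or Muc20 reads lost there, cannot be told. The deviations of both genes had r of 0.68 over 11 libraries. Muc13 lies 996601 bases beyond Muc20 on the same chromosome and had r of -0.12 with Muc4. It overlaps the antisense noncoding gene Gm15658 by 2103 bases, a gene at 1.33 to 9.58 CPM.

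**Figure D4:**
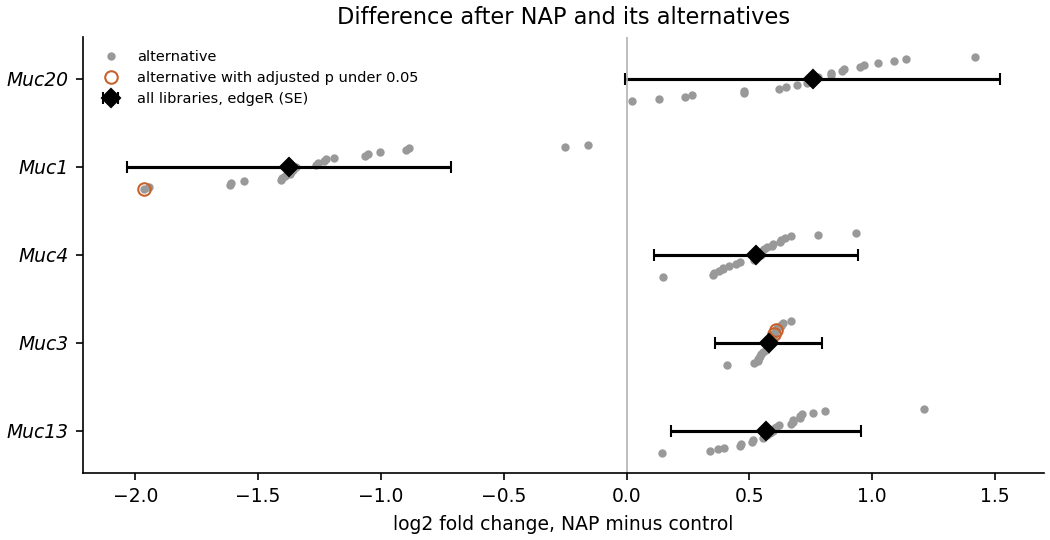
Log2 fold change, NAP minus control, of each membrane-bound mucin gene: the edgeR value over all libraries with its standard error (diamond) and each alternative analysis (grey). Muc3 keeps to 0.41 to 0.67, Muc1 ranges from -1.97 to -0.16, and circles mark the 3 alternatives with an adjusted p under 0.05.

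Whether the members differed from each other in their response was tested on the log2 ratio of each of 10 pairs, with an exact two-sided permutation test (462 ways to divide the libraries). None passed. The smallest p was that of Muc1 over Muc20, a log2 ratio of 4.30 ± 1.17 in controls and 2.44 ± 1.68 after NAP (exact p = 0.0563, adjusted p = 0.289 over 10 pairs), in which 3 of 6 NAP libraries lay below every control. The ratio of Muc1 to Muc3 was -6.06 ± 1.62 and -7.66 ± 0.78 (exact p = 0.0649, adjusted p = 0.289). Among the other 4 genes the ratios differed by -0.25 to -0.07 between groups (exact p of 0.725 and above). The negative fold change of Muc1 was therefore not shown to differ from the positive ones of the other members.

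Genes whose deviations from the own group's mean followed each member most closely are named by a fixed rule, up to 3 a member, as a description over 11 libraries. Muc13 was followed by Leprot (r = 0.994) and Sh3yl1 (0.992). The closest to Muc1 were Aen (0.971), Fan1 (0.970) and Ptpn13 (0.965). Muc3 was nearest to the keratin gene Krt23 (0.912), Nbl1 (0.888) and the integrin beta 4 gene Itgb4 (0.873). For Muc4 they were the claudin gene Cldn8 (0.936), Pde2a (0.923) and Naip5 (0.923), and for Muc20 Htr4 (0.949), Pacs1 (0.918) and Thap2 (0.918). None of the genes named here passed the test of NAP against control. These are the highest values among all genes compared, and the libraries share the marker differences given above.

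Among secreted mucins Muc2 was abundant. Muc2 held 2854, 369, 1255, 4961 and 345 CPM in controls 1 to 5, high in controls 1 and 4 and low in controls 2 and 5 as Muc1 was. NAP libraries held 732 to 2349 CPM, with a median of 1596 CPM, within the range of the controls. The log2 fold change was -0.36 (SE 0.61, adjusted p = 0.755). The gastric and airway mucins Muc6, Muc5ac and Muc5b reached at most 30, 7 and 6 counts in any library. Further mucin and mucin-like genes are not all secreted, and Muc15, Muc16 and Muc21 are membrane-bound mucins outside the list described here. Muc15, Muc16, Muc21, Mucl1, Mucl2, Mucl3 and Emcn reached at most 2, 19, 1, 3, 8, 16 and 8 counts. Of 15 other mucin and mucin-like genes 13 had a row, 4 were tested and 0 passed. Cd164, a sialomucin, had 295 ± 61.6 and 426 ± 117 CPM (adjusted p = 0.184), and Podxl, the podocalyxin gene, 2.06 ± 2.91 and 1.09 ± 0.27 CPM (adjusted p = 0.414). The control mean of Podxl rested on control 4, at 7.24 CPM. The other controls held 0.43 to 1.11 CPM, and NAP libraries 0.78 to 1.46 CPM.

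Lists of genes that act on membrane mucins are given for their counts, to be read against 2.12% called, 44.7% positive, 55.3% negative and a median of -0.07 over all tested genes. The list of partners of the cytoplasmic tails and the glycocalyx held 19 names. Of these 17 had a row, Nherf1 and Nherf2 being other names of the listed Slc9a3r1 and Slc9a3r2. Among them 16 were tested and 0 passed, 10 being positive (median 0.06). Egfr, the epidermal growth factor receptor gene, had 38.5 ± 8.57 and 63.9 ± 17.9 CPM (log2 fold change 0.73, adjusted p = 0.0789). Erbb3, a partner receptor of ErbB2, had 272 ± 46.1 and 484 ± 199 CPM (adjusted p = 0.106). All 7 genes of cleavage and shedding were tested and 0 passed (median 0.07). The sheddase gene Adam10 had 137.1 ± 45.1 and 231 ± 33.4 CPM (log2 fold change 0.75, adjusted p = 0.0771), and the membrane metalloprotease gene Mmp14 58.8 ± 18.2 and 41.9 ± 4.81 CPM (adjusted p = 0.160).

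In the list of mucin O-glycosylation enzymes, which add and extend the sugars, 26 of 27 were tested, 14 were positive and 0 passed (median 0.10). The smallest p belonged to 2 transferases that start the chains. Galnt10 had 104 ± 10.6 and 73.9 ± 13.3 CPM (adjusted p = 0.0845), and Galnt12 91.1 ± 40.6 and 50.1 ± 13.4 CPM (adjusted p = 0.0851). Of 19 transcription factor genes of the gut epithelium all were tested, 13 were negative and 0 passed (median -0.11, against -0.07 over all genes). The intestinal homeobox genes Cdx1 and Cdx2 had the smallest p, with 313 ± 92.4 and 160.4 ± 61.05 CPM for Cdx1 (log2 fold change -0.96, adjusted p = 0.0694) and 326 ± 113 and 185 ± 24.6 CPM for Cdx2 (-0.82, adjusted p = 0.0815).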

How the data were processed

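The authors deposited whole-number counts per gene for 11 libraries and a table of FPKM values. The tools listed in the submitters' processing notes are Trimmomatic 0.39, HISAT2 2.2.1 and featureCounts from Subread 2.0.8, with genome build GRCm39. Strand use, annotation release and multimapping were not stated for these data, so Muc3 and its neighbouring paralog Muc3a are uncertain. Each FPKM value equalled the count over gene length times 1 constant per library, at 0.782 to 1.15 times the value the count total would give.

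Genes were kept with filterByExpr, scaled with TMM and tested with edgeR 4.0.16 (quasi-likelihood, robust, R 4.3.3), Benjamini-Hochberg adjustment over 14840 genes and a threshold of 0.05. No covariate was used. CPM use the TMM-scaled library sizes (prior count 2 on the log scale), and standard errors are the absolute log2 fold change over the root of the test statistic. The members and lists were chosen with earlier results of these data known. Named were all members, for each of the 5 gene lists (not the cell type markers) every called gene or, where fewer than 2 passed, the 2 with the smallest p, other mucins with a count (the low ones by their highest counts), and 3 genes of like pattern a member (mean log2 CPM of at least 1), of which 1 is not reported here. Alternatives used DESeq2 1.42.0, limma 3.58.1, other scalings and filters, FPKM with pseudocounts of 1 and 0.1, transcript GC content (GENCODE M21, found for 84.0% of tested genes) and left-out libraries. Counts were simulated for these 14840 genes, each gene drawn independently, with changes only in genes of mean log2 CPM above 1. Recovered were 28 of 100 genes with a log2 change of 1 and 89 of 100 with a log2 change of 2, with 1 false call. The spread that controls share across genes was not simulated, so the false call does not give the error rate of these data.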

Additional observations from a re-analysis of the deposited data

Results flagged for a closer look

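Among 10 sets of values (5 genes in 2 groups), 2 held a library that stood apart from its group by Dixon's criterion on CPM. Chance meets it in about 1 of 20 sets of normally distributed values, which CPM need not be. The sets also share their libraries. Muc1 was at 20.1 CPM in NAP 1, while the other NAP libraries held 3.20 to 8.54 CPM. Without NAP 1 the log2 fold change of Muc1 was -1.94 (adjusted p = 0.0851). Muc20 was at 4.24 CPM in NAP 6, while the other NAP libraries held 0.299 to 1.30 CPM.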

How the results depend on the processing

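All 123 alternative values of the members kept their sign, and 120 stayed on the same side of the threshold. The other 3 were past it: Muc3 with DESeq2 and with the marker score as covariate, and Muc1 without controls 2 and 5. The count of members called was thus 1 in each of those fits and 0 in all others, including limma on voom and every fit that left out 1 library (0 to 0). DESeq2 gave no adjusted p for Muc20, and Muc20 did not pass a filter of 1 CPM in 5 libraries. No pair ratio passed under any alternative, and leaving out 1 library gave 0 to 0 pairs. Over all genes edgeR called 315, with 156 higher and 159 lower, 1480 at a threshold of 0.10, 41 with library totals only, 89 with no filter and 45 with the GC trend removed (37 higher and 8 lower). DESeq2 called 1656, the score covariate 3267, and the fits without controls 2 and 5 or 1 and 4 called 824 and 1315. Leaving out 1 library gave 0 to 814: 0 without control 1, 2 or 5 or NAP 2, 4 or 5, then 158, 436, 814, 790 and 112 without control 3, control 4, NAP 1, NAP 3 and NAP 6. The split was 130 higher and 306 lower without control 4. The cause was not tested. With a replicate block 0 genes were called in edgeR (2903 at an unadjusted p under 0.05), and Muc3 was at 0.61 (adjusted p = 0.231). Same-numbered deviations correlated at 0.42, 0.34, -0.07, -0.30 and 0.30 for numbers 1 to 5, so the numbers do not show a pairing, and only controls 1 and 2 correlated best with their own number.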

Other observations

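Next to Muc3 on chromosome 5 lie 2 related genes outside the list, named here after their values were seen. Muc3a, whose protein the deposited table likens to Mucin-3B, held 169.6, 42.3, 120.3, 164.9 and 43.3 CPM in controls 1 to 5 and 97.6 to 160.2 CPM after NAP (log2 fold change 0.15, adjusted p = 0.822). Unlike Muc3 it was low in controls 2 and 5, a difference that was not tested. Gm31160, likened there to Mucin-12, held 4 to 29 counts in controls and 0 to 26 after NAP (log2 fold change -0.36, adjusted p = 0.788). Reads could be shared between these neighbouring copies.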
